A study of Oryza sativa with 12 samples.

Results

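In rice leaf primordia, 194 genes stood higher in each of 3 mutant lines of auxin transport components than in WT. The members were chosen from measured FPKM values (fragments per kilobase of gene length, scaled to library size). An identifier starting with Os was a member if log2 of its group mean FPKM plus 1, over the WT mean plus 1, was at least 0.8 in every mutant line, and if the lowest of the 9 mutant libraries lay above the highest WT library. Of 28962 such identifiers, 194 met both conditions, or 0.670%. A further 93 met the fold condition in all 3 lines but overlapped with WT in at least 1 library. Without WT replicate 1, a single library, 297 identifiers met the rule. The mirrored rule, for genes lowered in all 3 lines, found 37.

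The 12 libraries comprised 3 each of ospid C2, ospid C1, ospin1c ospin1d and WT, the cultivar Nipponbare. Both ospid lines carry the same genotype label, a knockout of OsPID, and the labels of ospin1c ospin1d give a knockout of OsPIN1c and OsPIN1d with no separate lines named. All plants grew at 28 °C for 15 h of light and 24 °C for 9 h of darkness, at 70% relative humidity. Whether each library had its own plants is not stated in the labels, and p-values below cover only the spread among the libraries, which may be technical.

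As background, auxin moves from cell to cell through PIN proteins, carriers in the plasma membrane that export it. Kinases of the PINOID type, to which OsPID belongs, phosphorylate PIN proteins and affect their activity and placement. Auxin maxima built by this transport mark where leaves start at the shoot apex and take part in vein patterning. Leaf primordia are the young leaves around that apex.

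The totals that the FPKM values were scaled to, recovered from the values themselves, were 15211547 to 16422849 reads a library. At these totals 1 read of a gene of 1 kb was worth 0.0609 to 0.0657 FPKM. Reads of the listed identifiers made up 99.947 to 99.983% of them, so the number of reads sequenced is not known. The identifiers follow the naming of the rice annotation, in which the first 2 digits give the chromosome. Of all listed identifiers 1 matched the table of rice genes used here, and 0 of the 194 members did. The members are therefore described by identifier, with no gene name or role. The 3 edited genes and markers of the tissue were not looked up for the same reason. In such bulk tissue, more cells of a type and more RNA per cell cannot be told apart.

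The values of each mutant line against WT chose the members and are given without a test. Over the 191 members with a read in at least 1 WT library, the log2 ratio had a median of 1.62 in ospid C2, with a range of 0.83 to 5.55. In ospid C1 its median was 1.56, with a range of 0.80 to 5.84, and in ospin1c ospin1d 1.41, with a range of 0.80 to 5.49. For the other 3, listed at 0 in WT, no ratio is given. Over all 194, the ratio was at least 1 in every line for 131 members and at least 2 in every line for 21. The line with the largest ratio was ospid C2 for 75 members, ospid C1 for 66 and ospin1c ospin1d for 53. All identifiers tested below were also offset from WT, by medians in log2(FPKM + 1) minus the WT mean, in replicate order. These were -0.04, 0.08 and 0.15 in ospid C2, 0.23, 0.10 and 0.12 in ospid C1, and 0.005, -0.03 and -0.008 in ospin1c ospin1d. The part of this offset in the order of the lines was not tested.

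The rule favours genes that are low in WT, so the levels are a description of the list. The median of the members' mean levels was 11.7 FPKM over the mutant libraries, against 2.46 FPKM in WT. In all 3 WT libraries 45 members were below 1 FPKM, and 32 had fewer than 10 reads in each. At the other end, 39 members averaged 10 FPKM or more in WT and 2 averaged 100 FPKM or more. In the mutants 172 members reached 1 FPKM in all 9 libraries, and 14 had fewer than 10 reads in at least 1 of them. All 194 passed the filter of the test used below.

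At the edge of the rule, the lowest of the 3 ratios was 0.81 for Os09g0397300 and 0.80 for Os09g0380000, Os05g0375400, Os03g0129400 and Os07g0525100. Just outside it, among identifiers whose mutant and WT libraries did not overlap, it was 0.80 for Os01g0873200 and Os03g0581400 and 0.79 for Os01g0930800, Os03g0271400 and Os01g0685400. Members and near misses thus lay within 0.02 of each other on the log2 scale. Os05g0375400 owed its mean in ospin1c ospin1d largely to 1 library. It was at 0.607, 0.843 and 2.17 FPKM in ospid C2, at 1.27, 0.679 and 0.481 FPKM in ospid C1, at 0.716, 0.442 and 16.8 FPKM in ospin1c ospin1d, and at 0, 0.0763 and 0.0381 FPKM in WT.

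**Figure D1:**
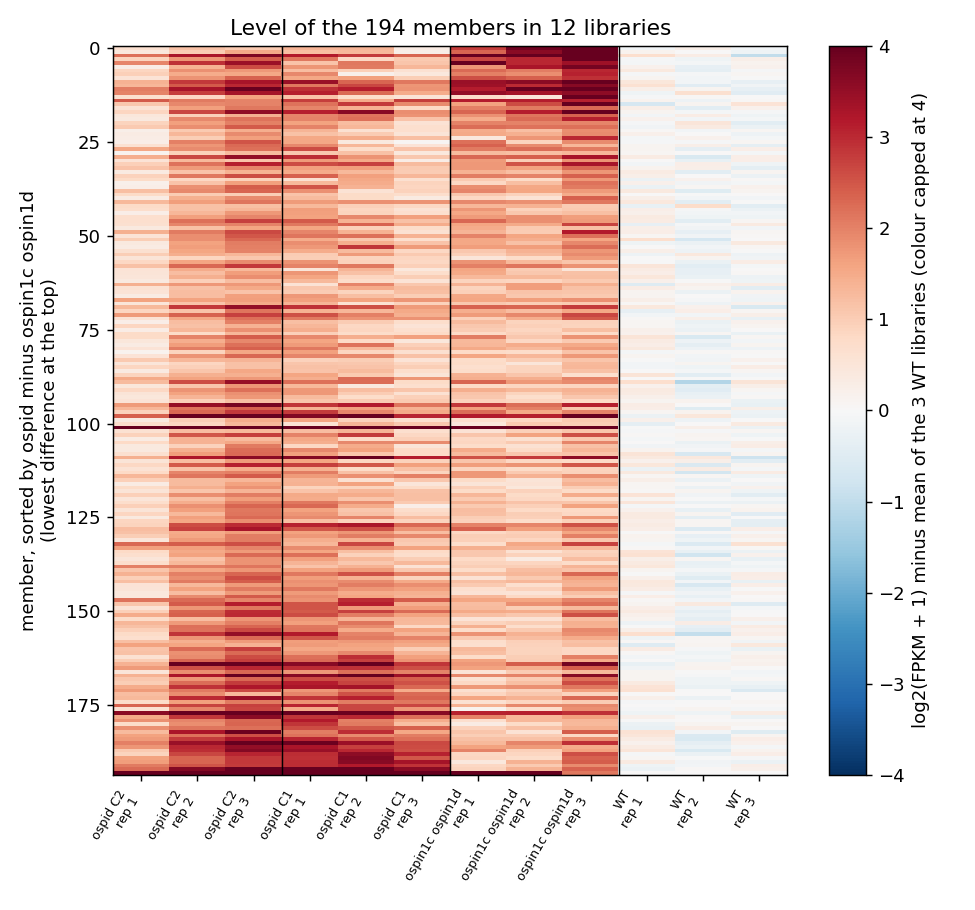
Level of each of the 194 members (rows) in the 12 libraries (columns, by group and replicate), as log2(FPKM + 1) minus the mean of the 3 WT libraries, with rows sorted by the difference between the ospid lines and ospin1c ospin1d. Red fills every mutant column, most weakly ospid C2 replicate 1, and the top rows are those redder in ospin1c ospin1d, the bottom rows those redder in the ospid lines.

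The most abundant member was Os12g0632000, which stood far above the rest. It was at 2818, 3299 and 3978 FPKM in ospid C2, at 3933, 4085 and 3887 FPKM in ospid C1, at 1996, 2364 and 2759 FPKM in ospin1c ospin1d, and at 1287, 1299 and 1120 FPKM in WT. Its log2 ratio of 0.94 in ospin1c ospin1d was close to the limit of the rule, while the ospid lines were at 1.45 (C2) and 1.68 (C1). Os05g0344200 came next, at 252, 374 and 418 FPKM in ospid C2, at 393, 543 and 532 FPKM in ospid C1, at 264, 300 and 557 FPKM in ospin1c ospin1d, and at 147, 118 and 171 FPKM in WT. The mutant libraries of this gene spanned 252 to 557 FPKM, all above the WT libraries as the rule requires.

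Os05g0399400 had a different profile, with its highest values in ospin1c ospin1d. It was at 82.8, 173 and 237 FPKM in ospid C2, at 163, 124 and 88.8 FPKM in ospid C1, at 620, 821 and 640 FPKM in ospin1c ospin1d, and at 28.0, 21.3 and 8.09 FPKM in WT. By the rule none of the 3 mutant groups overlapped with WT. The libraries of ospin1c ospin1d also did not overlap with either ospid line. Os01g0149800 and Os02g0626100 also had their highest group mean there. Os01g0149800 was at 53.6 to 188 FPKM in the 6 ospid libraries, at 194 to 282 FPKM in ospin1c ospin1d, and at 33.4 to 39.5 FPKM in WT. Os02g0626100 was at 106 to 249 FPKM in the ospid libraries, 208 to 331 FPKM in ospin1c ospin1d and 82.7 to 95.2 FPKM in WT, and its ospid and ospin1c ospin1d libraries overlapped.

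The other members among the 10 most abundant were Os03g0115800, given below, Os08g0374000, Os10g0555900, Os10g0330000 and Os01g0971400. Os08g0374000 was at 73.7, 211 and 311 FPKM in ospid C2, at 176, 188 and 110 FPKM in ospid C1, at 160, 101 and 119 FPKM in ospin1c ospin1d, and at 37.4, 20.6 and 37.1 FPKM in WT. Os10g0330000 was at 66.9, 180 and 229 FPKM in ospid C2, at 232, 243 and 118 FPKM in ospid C1, at 80.4, 85.5 and 103 FPKM in ospin1c ospin1d, and at 34.7, 19.2 and 18.8 FPKM in WT. In both genes ospid C2 replicate 1 was the lowest mutant library. Os10g0555900 was at 71.7 to 243 FPKM in the ospid libraries, 143 to 186 FPKM in ospin1c ospin1d and 33.3 to 62.5 FPKM in WT.

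Among the members with reads in WT, Os07g0511400 had the largest smallest ratio. With so few WT reads the ratios of such genes, and their order, depend on the 1 FPKM added to each mean. It was at 34.8, 61.0 and 82.5 FPKM in ospid C2, at 66.4, 102 and 50.3 FPKM in ospid C1, at 76.2, 46.2 and 48.6 FPKM in ospin1c ospin1d, and at 0.269, 0.515 and 0.0857 FPKM in WT. The WT values came from 3, 6 and 1 reads. Its log2 ratios were 5.55 in ospid C2, 5.84 in ospid C1 and 5.49 in ospin1c ospin1d, so the 3 lines stood almost level. Its neighbour Os07g0511301 was also among the 10 members with the largest smallest ratio and is given below.

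Os03g0115800, also among those 10, had no read in any WT library. It was at 296, 324 and 368 FPKM in ospid C2, at 306, 321 and 300 FPKM in ospid C1, and at 66.2, 49.3 and 3.30 FPKM in ospin1c ospin1d. Its ospid libraries lay close together, while ospin1c ospin1d replicate 3 was far below the other libraries of its group. Also listed at 0 throughout WT, Os03g0105500 was at 3.97, 5.44 and 5.72 FPKM in ospid C2, at 7.20, 5.33 and 5.34 FPKM in ospid C1 and at 1.64, 2.75 and 2.77 FPKM in ospin1c ospin1d. The last, Os08g0207300, was at 1.35, 2.67 and 1.46 FPKM in ospid C2, at 2.85, 4.88 and 3.84 FPKM in ospid C1 and at 0.822, 1.13 and 0.863 FPKM in ospin1c ospin1d. All 3 were thus lowest in ospin1c ospin1d among the mutants, and no fold over WT is given for them.

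The remaining members of the 10 with the largest smallest ratio were Os12g0538600, Os11g0655900, Os03g0823400, Os11g0671000, Os04g0415800, Os06g0698748 and Os12g0231000. Their smallest log2 ratio was 2.70 for Os12g0231000 and 3.83 for Os12g0538600, with the others between. Os12g0538600 had 0, 3 and 0 reads in the WT libraries and was at 5.07 to 34.8 FPKM in the ospid libraries and at 9.10 to 30.1 FPKM in ospin1c ospin1d. Os12g0231000 was at 6.15 to 31.0 FPKM in the ospid libraries, at 17.0 to 40.7 FPKM in ospin1c ospin1d and at 0.643 to 1.40 FPKM in WT. Neither gene separated the ospid lines from ospin1c ospin1d, whose libraries overlapped.

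The order of libraries within a group recurred from gene to gene. Os11g0655900 was at 3.22, 24.7 and 32.8 FPKM in ospid C2, at 18.9, 32.9 and 10.6 FPKM in ospid C1, at 4.35, 7.69 and 22.3 FPKM in ospin1c ospin1d, and at 0.327, 0.730 and 0.833 FPKM in WT. Os03g0823400 was at 12.2, 45.6 and 59.5 FPKM in ospid C2, at 62.1, 82.3 and 43.2 FPKM in ospid C1, at 27.8, 33.5 and 58.2 FPKM in ospin1c ospin1d, and at 5.49, 5.67 and 1.82 FPKM in WT. In both genes replicate 1 of ospid C2, replicate 3 of ospid C1 and replicate 1 of ospin1c ospin1d were the lowest of their groups. The ospin1c ospin1d part did not hold over the list, where replicate 1 was lowest for 77 members and replicate 2 for 86.

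Much of the list shared the order seen in the ospid lines. Replicate 1 of ospid C2 was the lowest of its 3 libraries for 189 of the 194 members, and replicate 3 the highest for 181. Replicate 3 of ospid C1 was the lowest of its group for 148 members. Replicate 3 of ospin1c ospin1d was the highest of its group for 129 members, and WT replicate 1 was the highest of its group for 108. Of the 9 mutant libraries, ospid C2 replicate 1 was the lowest for 97 members and ospid C2 replicate 3 the highest for 96. The same counts over all tested identifiers were not made. Replicate 3 of ospid C1 lay below its group mean for 90.7% of the members and 56.6% of all tested identifiers. For ospin1c ospin1d replicate 3 these shares were 26.3% and 49.4%, and for WT replicate 1 28.35% and 46.8%. The rule used the extremes of these libraries, so the order is partly selected.

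The spread within ospid C2 was wide. The median member lay above its WT mean by 0.85 in replicate 1, 1.74 in replicate 2 and 2.14 in replicate 3, on the log2(FPKM + 1) scale. In ospid C1 the medians were 1.75, 1.63 and 1.18, and in ospin1c ospin1d 1.31, 1.19 and 1.70. The libraries of ospid C2 thus differed from each other by more than the group medians of the 3 lines did. As a deviation from the mean of its own group, the median member was at -0.71, 0.15 and 0.58 in ospid C2 replicates 1, 2 and 3. The same median over all 21250 tested identifiers was -0.12, 0.02 and 0.10 in the same libraries. After median-ratio scaling, which set the medians of all tested identifiers close to 0, the members were at -0.58, 0.13 and 0.48, so most of the spread within ospid C2 remained. Replicate 1 of ospid C2 had the largest recovered total, with 16422849 reads, and replicate 3 the smallest, with 15211547. The part of these totals in the spread was not tested.

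The members moved together between libraries of a group. Over the 12 libraries, the median pairwise Pearson correlation of their deviations from group means was 0.630. Among an evenly spaced subset of 5313 tested identifiers it was 0.0745. A single axis held 65.2% of the members' deviations and 60.3% after median-ratio scaling, against 25.9% over all tested identifiers. On that axis 190 of the 194 members lay on the same side. The axis correlated with the leading axis of all tested identifiers at 0.858 over the 12 libraries, as a description, since both come from the same libraries. Replicate 1 was lowest and replicate 3 highest in ospid C2 for 92.3% of the members, and for 45.7% of all tested identifiers. The 37 genes lowered in all 3 lines had median deviations of 0.10, 0.10 and -0.10 in ospid C2 replicates 1, 2 and 3. The rule used the extremes of these same libraries, so the shared spread is a description of the list.

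**Figure D2:**
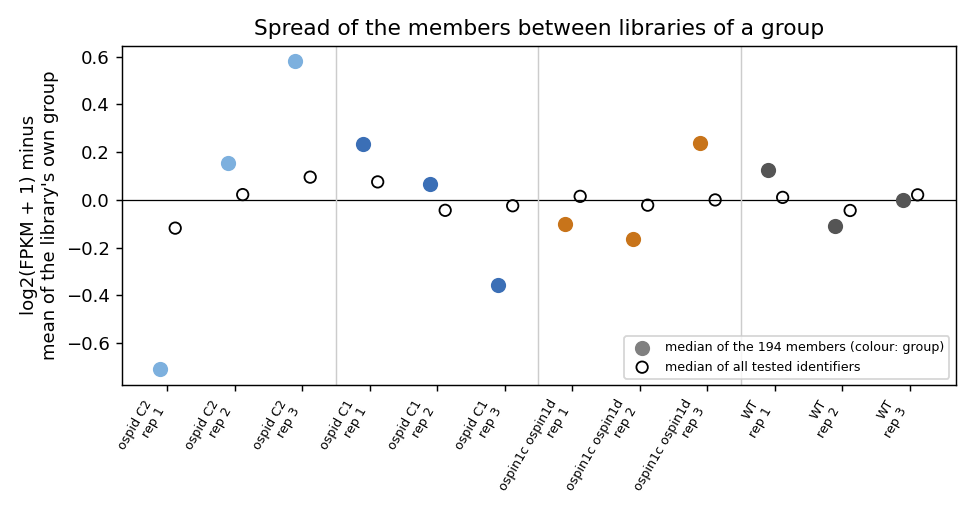
Median deviation from the mean of the library's own group, in log2(FPKM + 1), for the 194 members (filled points, coloured by group) and for all tested identifiers (open points), in each of the 12 libraries. The members run from -0.71 in ospid C2 replicate 1 to 0.58 in ospid C2 replicate 3, and all tested identifiers stay between -0.12 and 0.10.

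The ospid lines were then compared directly with ospin1c ospin1d, a contrast the rule did not use, though it used the same mutant libraries. It asks whether the raised genes stood at like levels in mutants of the kinase and of the carriers. With limma on log2(FPKM + 1) and Benjamini-Hochberg adjustment over 21250 identifiers, 18 of the 194 members were higher in the ospid lines and 11 lower, or 9.28% and 5.67%. Over all tested identifiers 12.2% were higher and 6.96% lower, 19.2% in either direction, so the members' share was near the background. The median difference of the members was 0.14, against 0.09 over all tested identifiers, and leaving out 1 ospid C2 library moved it to 0.01 (replicate 3) or 0.32 (replicate 1). Median-ratio scaling moved these medians to 0.03 and -0.01 and called 17 members higher and 15 lower, against 1944 higher and 2114 lower among all identifiers, where 2593 and 1478 were called as deposited. The differences below are as deposited and include that median of 0.09. At an unadjusted p under 0.05 there were 56 members, or 28.9%, against 35.5% of all tested identifiers.

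The count of called members moved when some single libraries were left out. Without ospid C2 replicate 1, 50 members were higher and 10 lower in the ospid lines. Without ospid C2 replicate 2 the numbers were 12 and 7. They were 10 and 6 without ospin1c ospin1d replicate 1, and 9 and 6 without its replicate 2. Shares over all tested identifiers were not counted for these fits, so whether the members moved more than all identifiers is not known. For 12 members all 6 ospid libraries lay above all 3 ospin1c ospin1d libraries, or 6.19%, against 13.7% of all tested identifiers, and for 8 all lay below, or 4.12%, against 7.76%.

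**Figure D3:**
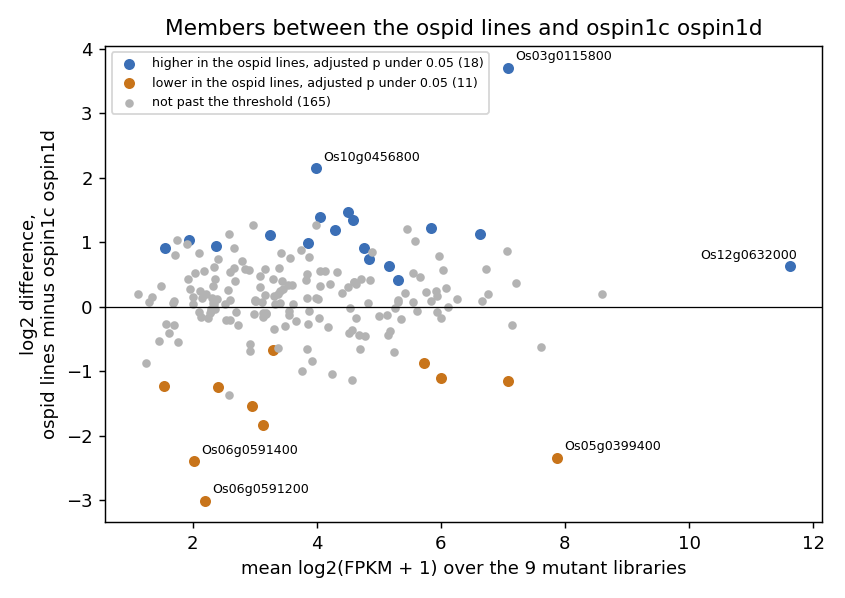
Log2 difference of the ospid lines minus ospin1c ospin1d (y axis) against mean log2(FPKM + 1) over the 9 mutant libraries (x axis) for the 194 members. Blue points are the 18 members higher and orange points the 11 lower in the ospid lines, from -3.0 for Os06g0591200 to 3.71 for Os03g0115800, and grey points did not pass the threshold.

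Among the members higher in the ospid lines, Os05g0100100 had the smallest p. It was at 7.88, 10.2 and 10.5 FPKM in ospid C2 and at 14.5, 13.2 and 12.2 FPKM in ospid C1, against 3.73, 4.73 and 5.70 FPKM in ospin1c ospin1d, and at 1.05, 2.101 and 1.53 FPKM in WT. The libraries of the 4 groups did not overlap, for WT by the rule, but ospid C2 and ospid C1 were not called different (limma, adjusted p = 0.424). The log2 difference between the ospid lines and ospin1c ospin1d was 1.11 (SE 0.157, limma, adjusted p = 0.00131). Os10g0506900 was at 19.3, 26.3 and 32.3 FPKM in ospid C2 and at 36.5, 42.8 and 34.5 FPKM in ospid C1, against 7.56, 9.03 and 17.0 FPKM in ospin1c ospin1d. WT stood at 3.29, 3.51 and 4.79 FPKM, below every mutant library as the rule requires. The log2 difference between the ospid lines and ospin1c ospin1d was 1.47 (SE 0.226, limma, adjusted p = 0.00205).

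Os10g0456800 showed a wider gap with some overlap. It was at 8.64, 24.8 and 37.7 FPKM in ospid C2 and at 33.1, 37.5 and 23.7 FPKM in ospid C1, against 2.72, 4.27 and 9.26 FPKM in ospin1c ospin1d, and at 0.693, 1.05 and 1.32 FPKM in WT. Replicate 1 of ospid C2 was below replicate 3 of ospin1c ospin1d, and the log2 difference was 2.15 (SE 0.402, limma, adjusted p = 0.00558). Os10g0210500 was at 91.7, 136 and 182 FPKM in ospid C2 and at 138, 111 and 126 FPKM in ospid C1, against 58.9, 61.0 and 53.4 FPKM in ospin1c ospin1d, and at 41.6, 19.4 and 31.9 FPKM in WT (log2 difference 1.14, SE 0.230, limma, adjusted p = 0.00799). The ospid libraries did not overlap with ospin1c ospin1d in this gene.

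The 3 genes listed at 0 in WT were all higher in the ospid lines than in ospin1c ospin1d by the same limma test. The log2 difference was 3.71 for Os03g0115800 (adjusted p = 0.00414), 0.95 for Os03g0105500 (adjusted p = 0.00350) and 0.91 for Os08g0207300 (adjusted p = 0.00733). WT libraries at 0 add no spread to the fit; with only the mutant libraries in it, the adjusted p was 0.0118 for Os03g0115800, 0.00916 for Os03g0105500 and 0.0160 for Os08g0207300. For Os03g0115800 the difference was 2.46 without ospin1c ospin1d replicate 3, and for Os08g0207300 it was 1.37 with a pseudocount of 0.1 and 1.43 by voom on the recovered reads. The most abundant member, Os12g0632000, was also higher, by 0.63 (adjusted p = 0.00609), with all 6 ospid libraries above all ospin1c ospin1d libraries.

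Of the members lower in the ospid lines, a pair of neighbours on chromosome 6 showed the widest gap. Os06g0591200 was at 0.8002, 1.62 and 1.41 FPKM in ospid C2 and at 1.99, 1.99 and 0.461 FPKM in ospid C1, against 6.94, 16.1 and 45.3 FPKM in ospin1c ospin1d, and at 0.0765, 0.366 and 0.0730 FPKM in WT. Os06g0591400 was at 0.629, 1.43 and 2.46 FPKM in ospid C2 and at 1.82, 1.99 and 0.415 FPKM in ospid C1, against 5.03, 13.8 and 19.8 FPKM in ospin1c ospin1d, and at 0.331, 0.237 and 0.0789 FPKM in WT. In both genes ospin1c ospin1d replicate 3 was the highest library. The log2 difference was -3.0 for Os06g0591200 (SE 0.441, limma, adjusted p = 0.00158) and -2.39 for Os06g0591400 (SE 0.380, limma, adjusted p = 0.00237). WT was near 0 in both, and with only the mutant libraries in the limma fit the adjusted p was 0.00565 and 0.00772.

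Os05g0399400 was lower in the ospid lines by a log2 difference of -2.34 (SE 0.380, limma, adjusted p = 0.00272), with the values given above. Os02g0823100 was at 2.73, 5.84 and 9.69 FPKM in ospid C2 and at 7.63, 2.58 and 3.18 FPKM in ospid C1, against 11.8, 15.2 and 39.98 FPKM in ospin1c ospin1d, and at 0.924, 0.791 and 1.35 FPKM in WT. The log2 difference was -1.84 (SE 0.413, limma, adjusted p = 0.0125), and without ospin1c ospin1d replicate 3 the adjusted p was 0.0576. Os07g0429700 was at 3.88, 8.60 and 12.3 FPKM in ospid C2 and at 1.79, 4.38 and 1.70 FPKM in ospid C1, against 28.2, 9.22 and 12.2 FPKM in ospin1c ospin1d. WT was at 0.199, 0.190 and 0.380 FPKM, from 2, 2 and 4 reads, and ospid C2 replicate 3 overlapped with ospin1c ospin1d (log2 difference -1.54, SE 0.374, limma, adjusted p = 0.0173). Without ospin1c ospin1d replicate 1 that adjusted p was 0.0758.

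The calls of Os01g0149800 and Os12g0528801 were less firm. Os01g0149800 had a log2 difference of -1.16 (SE 0.310, limma, adjusted p = 0.0258), but leaving out any 1 of the ospin1c ospin1d libraries ended the call. Os12g0528801 was at 48.4, 37.4 and 34.9 FPKM in ospid C2 and at 60.2, 24.5 and 60.8 FPKM in ospid C1, against 79.6, 78.6 and 75.0 FPKM in ospin1c ospin1d, and at 9.06, 6.89 and 8.45 FPKM in WT. Its log2 difference was -0.86 (SE 0.243, limma, adjusted p = 0.0310), and the call ended under 7 of 18 alternatives, among them each ospin1c ospin1d library left out. The other 9 members higher in the ospid lines differed by 0.41 to 1.39 on the log2 scale (limma, adjusted p 0.0154 to 0.0371), and the other 2 lower members, named after their values were seen, by -0.67 for Os10g0516900 (adjusted p = 0.0409) and -1.23 for Os06g0317200 (adjusted p = 0.0397). Os10g0516900 was at 3.24, 4.95 and 7.27 FPKM in ospid C2 but at 10.8, 12.7 and 9.65 FPKM in ospid C1, against 10.01, 12.7 and 14.9 FPKM in ospin1c ospin1d, so the gap lay in ospid C2. These calls ended under 11 of 18 alternatives for Os10g0516900 and 15 of 18 for Os06g0317200.

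**Figure D4:**
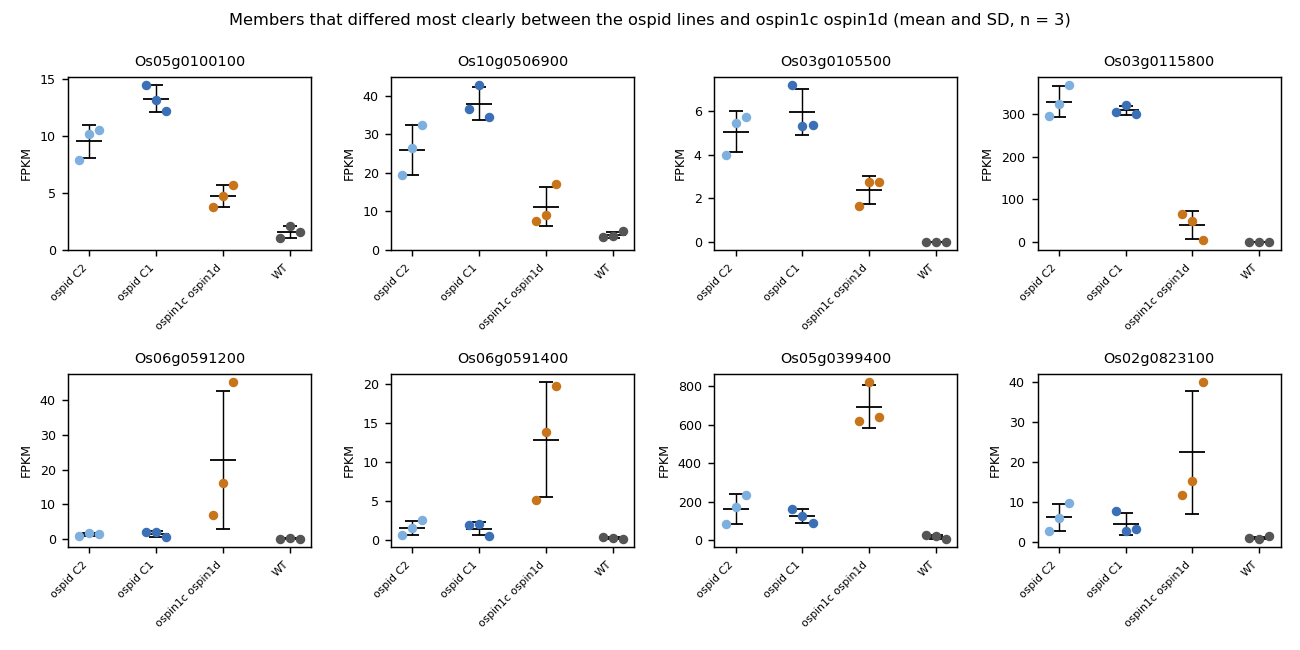
FPKM of 8 members in ospid C2, ospid C1, ospin1c ospin1d and WT, each point 1 library, with the group mean and SD (n = 3). In the upper row the ospid lines stand above ospin1c ospin1d, and in the lower row ospin1c ospin1d stands above both, at 620 to 821 FPKM for Os05g0399400.

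The comparison of ospid C2 with ospid C1, lines that carry the same genotype label, called 0 of the 194 members by limma, while 2 of all 21250 identifiers were called, or 0.00941%. At an unadjusted p under 0.05 there were 8 members, or 4.12%, against 10.5% of all tested identifiers. Voom on the recovered reads also called 0 members. The median member difference was -0.03, against -0.09 over all tested identifiers, with 93 members higher and 101 lower in ospid C2. The smallest p belonged to Os06g0141200, singled out after its values were seen. It was at 39.7, 39.9 and 43.0 FPKM in ospid C2, against 20.8, 25.2 and 13.7 FPKM in ospid C1, at 18.7, 18.8 and 24.7 FPKM in ospin1c ospin1d, and at 12.7, 7.22 and 7.83 FPKM in WT. The ospid lines did not overlap, with a log2 difference of 1.04 (SE 0.227, limma, adjusted p = 0.167).

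By identifier, the members lay on all 12 chromosomes. Their share of the listed identifiers was highest on chromosomes 11, with 18 of 1745 (1.03%), 7, with 23 of 2230 (1.03%), and 10, with 15 of 1506 (0.996%). It was lowest on chromosomes 8, with 8 of 1972 (0.406%), and 1, with 18 of 4100 (0.439%). The median recovered gene length was 1182 bases for the members, with a range of 96 to 5477, and 1519 bases for the tested identifiers starting with Os. These shares and lengths are descriptions, without a test.

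In 14 places 2 members lay at most 5 listed identifiers apart, which took in 28 members, and in 7 of these places they were next to each other. How many such places other lists of this size would hold was not counted. Such neighbours may share reads where genes overlap or are near copies, which the sources used here do not settle. On chromosome 7, Os07g0511301 stood beside Os07g0511400. It was at 12.8, 17.2 and 25.6 FPKM in ospid C2, at 22.8, 15.8 and 13.1 FPKM in ospid C1, at 8.51, 8.60 and 7.57 FPKM in ospin1c ospin1d, and at 0, 0 and 0.407 FPKM in WT. Unlike its neighbour, which had a log2 difference of 0.17 (SE 0.281, limma, adjusted p = 0.696), it was called higher in the ospid lines than in ospin1c ospin1d (0.99, SE 0.217, limma, adjusted p = 0.0113). With a pseudocount of 0.1 the adjusted p of Os07g0511301 was 0.121. Whether the 2 genes differed in this was not tested.

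Elsewhere on chromosome 7, Os07g0617000 and Os07g0617100 were adjacent. Os07g0617000 was at 23.7, 64.6 and 105 FPKM in ospid C2, at 90.1, 63.2 and 36.5 FPKM in ospid C1, at 13.8, 22.5 and 44.8 FPKM in ospin1c ospin1d, and at 5.81, 3.76 and 5.83 FPKM in WT. Os07g0617100 was at 7.28, 19.9 and 32.9 FPKM in ospid C2, at 20.9, 32.1 and 9.47 FPKM in ospid C1, at 7.93, 12.5 and 16.6 FPKM in ospin1c ospin1d, and at 3.14, 3.94 and 1.69 FPKM in WT. In ospid C2 and ospin1c ospin1d both genes had their lowest value in replicate 1 and their highest in replicate 3.

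On chromosome 3, Os03g0388900 and Os03g0389100 were both highest in ospin1c ospin1d. Os03g0388900 was at 26.1, 57.8 and 85.1 FPKM in ospid C2 and at 44.7, 67.2 and 35.2 FPKM in ospid C1, against 110, 82.9 and 132 FPKM in ospin1c ospin1d, and at 15.1, 6.81 and 8.62 FPKM in WT. Os03g0389100 was at 2.12, 5.21 and 4.78 FPKM in ospid C2 and at 3.08, 2.38 and 1.62 FPKM in ospid C1, against 7.39, 6.13 and 13.1 FPKM in ospin1c ospin1d, and at 1.28, 0.364 and 0.680 FPKM in WT. Both were lower in the ospid lines by limma, with log2 differences of -1.11 (adjusted p = 0.0463) for Os03g0388900 and -1.24 (adjusted p = 0.0129) for Os03g0389100. The first call ended under 11 of 18 alternatives, and the second without ospin1c ospin1d replicate 3 (adjusted p = 0.0648). On chromosome 1, Os01g0971000 and Os01g0971400 lay 3 places apart. Os01g0971000 was at 28.5 to 118 FPKM in the ospid libraries, 41.8 to 66.7 FPKM in ospin1c ospin1d and 11.1 to 18.8 FPKM in WT. Os01g0971400 was at 68.0 to 213 FPKM in the ospid libraries, 91.2 to 105 FPKM in ospin1c ospin1d and 27.3 to 62.2 FPKM in WT.

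**Figure D5:**
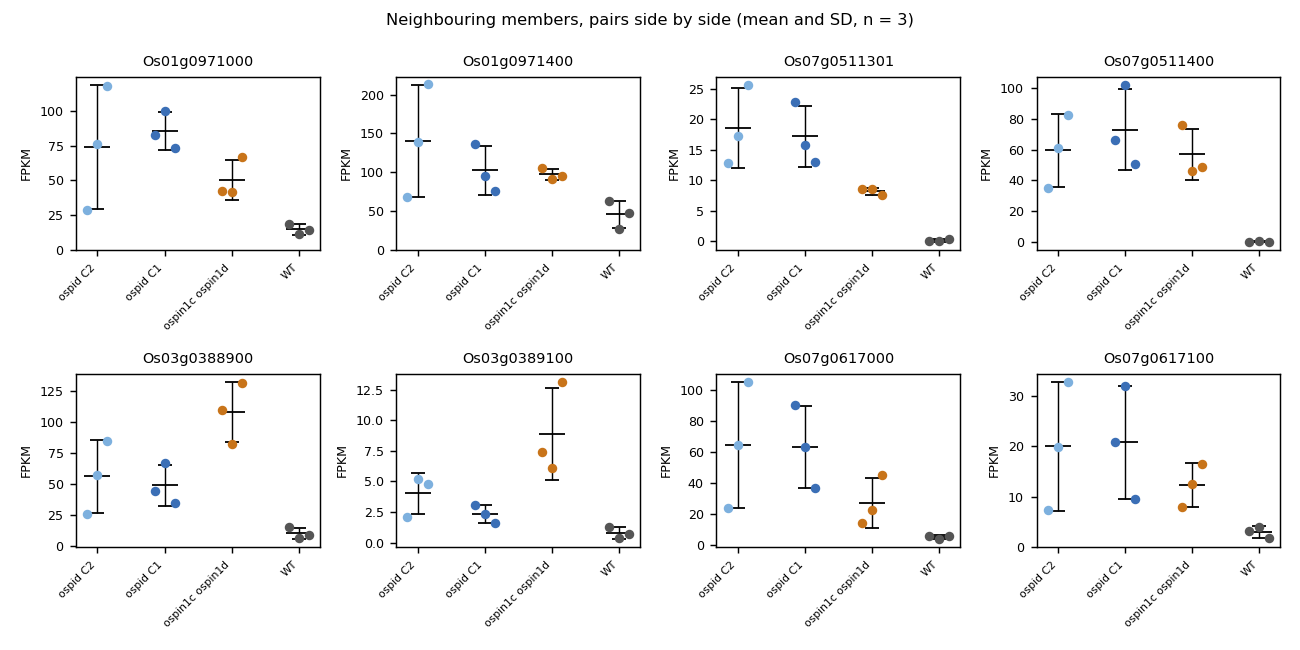
FPKM of the 4 most abundant pairs of neighbouring members in ospid C2, ospid C1, ospin1c ospin1d and WT, each point 1 library, with the group mean and SD (n = 3). All mutant libraries lie above WT, as the rule requires, and Os07g0511301 and Os07g0511400 are near 0 in WT.

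The short-arm ends of chromosomes 11 and 12 are known to be near copies of each other, so reads of genes there may be split between them. By identifier number, 5 members lay near that end of chromosome 11 and 3 near that of chromosome 12. All identifiers listed at these ends were not counted. Os11g0113700 was at 5.24, 10.1 and 15.7 FPKM in ospid C2, at 11.1, 6.65 and 3.87 FPKM in ospid C1, at 12.6 to 13.3 FPKM in ospin1c ospin1d, and at 1.75, 2.93 and 1.58 FPKM in WT. Os12g0113500 was at 8.04, 14.3 and 19.0 FPKM in ospid C2, at 13.9, 10.5 and 6.40 FPKM in ospid C1, at 18.4, 18.6 and 18.1 FPKM in ospin1c ospin1d, and at 3.72, 5.85 and 2.65 FPKM in WT. In both genes ospid C2 replicate 3 was the highest library and ospid C1 replicate 3 the lowest mutant library. Whether reads of both genes were split with near copies was not tested, and their levels are uncertain for that reason. The others there were Os11g0131900, Os11g0135000, Os11g0139700, Os11g0153000, Os12g0112000 and Os12g0128700, chosen like this pair after their values were seen.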

How the data were processed

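RNA sequencing libraries of rice leaf primordia were made from 2 µg of total RNA each with a NEBNext Ultra kit, per the labels. FPKM values, 1 table per library, are what the authors deposited. HISAT2 2.1.0, Bowtie2 2.2.3, HTSeq 0.6.0 and the genome IRGSP-1.0 appear in the submitters' processing notes, which give no roles. Strand settings and the treatment of shared reads are not given in the sources used here.

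Depth, gene length and reads were recovered from the steps between FPKM values; at the depth found, 100.0% of 1738 lengths came within 0.05 of a whole base, where other totals gave a median of 10.01%.

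The design was written for either unit, and its FPKM test was used: limma 3.58.1 (R 4.3.3, trend option). It took log2(FPKM + 1) of the 21250 identifiers that reached 1 FPKM in 3 libraries or more, with all 12 libraries in 1 fit. Scaling was kept as deposited. Fold changes on this scale understate changes of low genes. The test was also run on simulated data, for the ospid lines against ospin1c ospin1d only. The simulated noise was independent between genes, while the members here moved together. That run therefore does not give the share of false calls among the members. Members, lists and tests were chosen with earlier results of these data known.

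Named members were the 10 with the highest level, the 10 with the largest smallest ratio, those at 0 in WT, 5 on either side of the fold limit, the 8 with the smallest adjusted p in each direction, and the 4 most abundant pairs of neighbours. Lists of gene families and markers could not be applied, since 0 members matched the reference table. Alternatives were median-ratio scaling, no filter, a pseudocount of 0.1, only the groups compared, the replicate number as a block, voom on recovered reads, and each library left out. Median-ratio scaling of the library deviations was added after seeing the data.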

Additional observations from a re-analysis of the deposited data

Results flagged for a closer look

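The direct limma comparison of the ospid lines with ospin1c ospin1d called 29 of the 194 members, or 14.95%, against 19.2% of all tested identifiers. Of these, 20 are named above. They take in all 11 lower calls, while 9 of the 18 higher calls are not listed. Among the 20, 11 calls stayed past the threshold under every alternative. Those higher in the ospid lines on the log2 scale were Os03g0115800 (3.71, and 2.46 without ospin1c ospin1d replicate 3), Os10g0456800 (2.15), Os10g0506900 (1.47), Os10g0210500 (1.14), Os05g0100100 (1.11), Os07g0511301 (0.99), Os03g0105500 (0.95), Os08g0207300 (0.91) and Os12g0632000 (0.63). Those lower were Os06g0591200 (-3.0), Os06g0591400 (-2.39), Os05g0399400 (-2.34), Os02g0823100 (-1.84), Os07g0429700 (-1.54), Os03g0389100 (-1.24), Os06g0317200 (-1.23), Os01g0149800 (-1.16), Os03g0388900 (-1.11), Os12g0528801 (-0.86) and Os10g0516900 (-0.67).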

How the results depend on the processing

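The number of members, 194 by the rule, was 330 with a pseudocount of 0.1, 177 with median-ratio scaling (167 of them shared) and 131 at a log2 ratio of 1 or more. With 1 library left out it was 169 to 297, with 297 without WT replicate 1 and 267 without ospid C2 replicate 1. Of members differing between the ospid lines and ospin1c ospin1d there were 29. There were 18 without a filter on low values, 23 with only the groups compared, and 15 to 60 with 1 library left out. Shares over all tested identifiers were not counted for these fits, and the cause was not tested. The count for ospid C2 against ospid C1 was 0 under each of the 18 alternatives. For the 20 named calls, 308 of 360 results under alternatives stayed past the threshold and 0 changed direction, with 11 calls kept throughout. The median member difference of 0.14 ran from 0.01 without ospid C2 replicate 3 to 0.32 without ospid C2 replicate 1.

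Shared replicate numbers gave no pairing: same-numbered libraries of different groups had deviations correlated at -0.227 to 0.0694 over 18 pairs. With the replicate block 25 members differed between the ospid lines and ospin1c ospin1d, and 0 between ospid C2 and ospid C1. The share over all tested identifiers was not counted for that fit. Depth limits the 32 members with fewer than 10 reads in each WT library.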
